A study of Mus musculus with 7 samples.

Results

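The circadian clock genes Arntl, Npas2, Per1, Per2, Per3, Cry1, Nr1d1, Nr1d2, Dbp and Tef were examined in epididymal fat, a visceral depot of male mice that adjoins the epididymis and testis. A gene was represented by the array row, or probe set, that the platform table pairs with its symbol alone. This gave 9 of the 10 named genes, among 19938 genes measured in all, and Npas2 was not analysed here. Each of the 9 had a single probe set. The groups were 3 samples from aP2-XBP1 transgenic mice and 4 from wild type mice. All were male C57Bl/6J animals aged 17 weeks, fed standard chow with free access to water under a 12-hour light-dark cycle. The aP2 promoter is that of Fabp4, a fatty acid carrier of adipocytes that macrophages also express, and XBP1 activates genes of the endoplasmic reticulum when unfolded proteins build up there. The sources used here do not give the hour at which the animals were killed, the number of transgenic lines or the form of XBP1 carried. Nor do they say that every numbered replicate was 1 animal. The p-values therefore measure only the spread among these 7 samples, and some of it may be technical.

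The mammalian clock is a feedback loop of transcription. ARNTL (BMAL1) pairs with CLOCK or NPAS2 and activates Per, Cry, Nr1d, Dbp and Tef genes through E-boxes. PER and CRY proteins return to the nucleus and repress that activator, while NR1D1 and NR1D2 (REV-ERB alpha and beta) repress Arntl through ROR elements. DBP and TEF bind D-boxes and carry the rhythm to output genes. In mouse peripheral tissues, fat included, transcripts of Nr1d1 and Dbp are known to be high during the light phase, those of Nr1d2, Tef and Per3 later in it, those of Per1 and Per2 around the change to darkness, that of Cry1 later in the night and that of Arntl near the end of the dark phase. The level of these transcripts in a fat sample therefore moves with the hour of collection.

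Upstream sequences from RefSeq, build GRCm38.p6, were searched for elements of the clock. The 250 bases before the annotated start were searched on both strands for the E-box CACGTG, the D-box TTATGNAA and a loose form of the ROR element, TNGGTCA, whose free letter admits any base where the usual element has a purine. Of the 10 named genes 9 had at least 1 window, 12 windows in all, and Per2 had none in the table. Matches are in capitals. Dbp and Nr1d1 are printed because they had the largest differences described below, Per1, Per3 and Cry1 for their E-boxes and D-boxes, and Arntl for its 2 loose ROR matches.
Dbp chr7:45704997-45705246 (+ strand): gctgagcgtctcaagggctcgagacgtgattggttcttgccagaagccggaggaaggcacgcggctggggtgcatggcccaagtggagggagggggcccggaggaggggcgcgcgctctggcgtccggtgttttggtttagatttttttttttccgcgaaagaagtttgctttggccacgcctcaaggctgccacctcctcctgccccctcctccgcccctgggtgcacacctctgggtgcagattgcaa
Nr1d1 chr11:98775378-98775627 (- strand): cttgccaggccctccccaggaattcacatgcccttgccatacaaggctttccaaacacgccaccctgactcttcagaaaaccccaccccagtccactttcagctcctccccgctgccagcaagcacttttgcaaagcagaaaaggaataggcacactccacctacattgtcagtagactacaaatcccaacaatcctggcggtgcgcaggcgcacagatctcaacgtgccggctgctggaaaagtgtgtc
Per1 chr11:69098699-69098948 (+ strand): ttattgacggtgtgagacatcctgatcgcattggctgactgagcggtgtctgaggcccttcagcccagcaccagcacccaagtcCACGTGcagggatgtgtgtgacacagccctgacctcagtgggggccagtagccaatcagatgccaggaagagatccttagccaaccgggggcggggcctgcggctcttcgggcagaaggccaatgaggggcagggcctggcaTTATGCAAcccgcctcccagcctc
Per3 chr4:151044666-151044915 (- strand): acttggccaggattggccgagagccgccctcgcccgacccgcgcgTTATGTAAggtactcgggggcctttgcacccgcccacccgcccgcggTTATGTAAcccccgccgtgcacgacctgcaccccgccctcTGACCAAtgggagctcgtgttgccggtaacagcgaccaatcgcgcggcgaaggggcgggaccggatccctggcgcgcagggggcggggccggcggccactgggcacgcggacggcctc
Cry1 chr10:85185055-85185304 (- strand): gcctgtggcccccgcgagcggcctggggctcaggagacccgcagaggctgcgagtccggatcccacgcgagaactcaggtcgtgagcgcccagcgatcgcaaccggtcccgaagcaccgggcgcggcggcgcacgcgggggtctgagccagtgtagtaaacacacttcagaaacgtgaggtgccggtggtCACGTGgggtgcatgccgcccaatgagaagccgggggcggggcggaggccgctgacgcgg
Arntl chr7:113207215-113207464 (+ strand): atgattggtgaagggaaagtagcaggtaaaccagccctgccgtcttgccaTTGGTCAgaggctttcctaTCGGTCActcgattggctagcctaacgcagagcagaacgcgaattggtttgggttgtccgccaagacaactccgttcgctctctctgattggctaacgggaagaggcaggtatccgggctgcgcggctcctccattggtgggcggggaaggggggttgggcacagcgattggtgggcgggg
The E-box was found before 3 of the genes, namely Per1, Cry1 and Tef, and it was present in 6.02% of 32851 windows of the same length. The D-box was found before Per1 once and before Per3 at 2 places, against 3.07% of windows. The loose ROR form was found before Arntl, Per3 and Tef, against 9.19% of windows. Every one of these matches has T or C at the free letter, so none has the purine of the usual element. In Dbp, Nr1d1 and Nr1d2 none of these letter strings was present in this window. The percentages count windows, not genes, and Arntl, Per1 and Tef had 2 windows each, so a match was more likely for them. For Per1 and Arntl window 1 is printed, and window 2 of Per1 held none of these strings. A match describes letters only and is not a measured binding site.

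The arrays were of the type Affymetrix Mouse Gene 1.0 ST, 1 per sample, and expression is given as deposited, on the log2 scale after RMA, so a difference of 1 is a doubling. Array medians ran from 3.99 to 4.01 in transgenic and from 4.03 to 4.04 in wild type arrays, and precision is limited by having only 7 arrays. Xbp1, which checks the genotype, read 9.76, 9.99 and 9.66 in transgenic replicates 1 to 3, against 8.90, 9.07, 8.94 and 9.19 in wild type replicates 1 to 4. Every transgenic library lay above every wild type library, and the probe set does not tell transgene from endogenous transcripts. The wild type libraries were not alike. Known from the epididymis are Defb42, Serpina1f and Spink8, whose mean was 2.95, 3.10 and 2.65 in the transgenic libraries, against 9.31, 2.57, 9.38 and 10.05 in wild type replicates 1 to 4. Of 9 measured epididymal markers these 3 followed that pattern, and the other 6 (Lcn5, Lcn8, Lcn9, Adam7, Rnase9 and Cst11) read at most 4.69 in any library. The mean of 7 smooth muscle markers ran from 6.53 to 7.13 in transgenic fat and was 9.52, 7.12, 9.55 and 10.14 in wild type replicates 1 to 4. The mean of 6 adipocyte markers (Adipoq, Plin1, Lipe, Cidec, Lep and Fabp4) was 11.44, 11.36 and 11.46 in the transgenic libraries, against 10.68, 11.43, 11.00 and 11.12 in wild type replicates 1 to 4. The mean of 5 macrophage markers was 7.89, 8.04 and 8.24 in the transgenic libraries, against 9.23, 8.29, 9.15 and 7.42 in wild type replicates 1 to 4. The mean of 4 endothelial markers was 8.47, 8.23 and 8.29 in the transgenic libraries, against 7.85, 8.38, 8.10 and 7.95 in wild type replicates 1 to 4. In these lists wild type replicate 2 lay within 0.1 of the range of the transgenic libraries, and wild type replicates 1, 3 and 4 lay farther from it. Results on the clock genes are given with all 4 wild type libraries and with replicate 2 alone. In bulk tissue, fewer cells of a type and less RNA per cell cannot be told apart.

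Transgenic fat had higher mean levels than wild type fat for 8 of the 9 clock genes and a lower mean level for Arntl, where 53.6% of all probe sets had a higher mean. The largest differences were in Nr1d1 (log2 difference 0.59), Dbp (0.52) and Per1 (0.46), and the smallest in Cry1 (0.06). None of the 9 passed limma's adjusted p of 0.05, and 0 of 21789 probe sets did (0.0% in each direction), with a smallest adjusted p = 0.622. At an unadjusted p under 0.05, limma placed 3 clock genes higher and 1 lower, while 4.82% of all probe sets were higher and 3.12% lower by the same rule. The median difference of the 9 genes was 0.18, beside 0.0090 over all probe sets tested. It was 0.32 without wild type replicate 2 and 0.12 without wild type replicate 3. Against wild type replicate 2 alone it was -0.016, with 4 genes higher and 5 lower in transgenic fat, where 51.9% of all probe sets were higher.

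Without wild type replicate 2, limma's adjusted p was under 0.05 for 0 of the 9 clock genes, while 0.0321% of all probe sets passed as higher and 0.386% as lower. At an unadjusted p under 0.05 this comparison placed 5 clock genes higher, against 6.66% of all probe sets, and 1 lower, against 4.49%. Dbp then differed by 0.62 (limma adjusted p = 0.144) and Nr1d1 by 0.76 (limma adjusted p = 0.126).

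**Figure D1:**
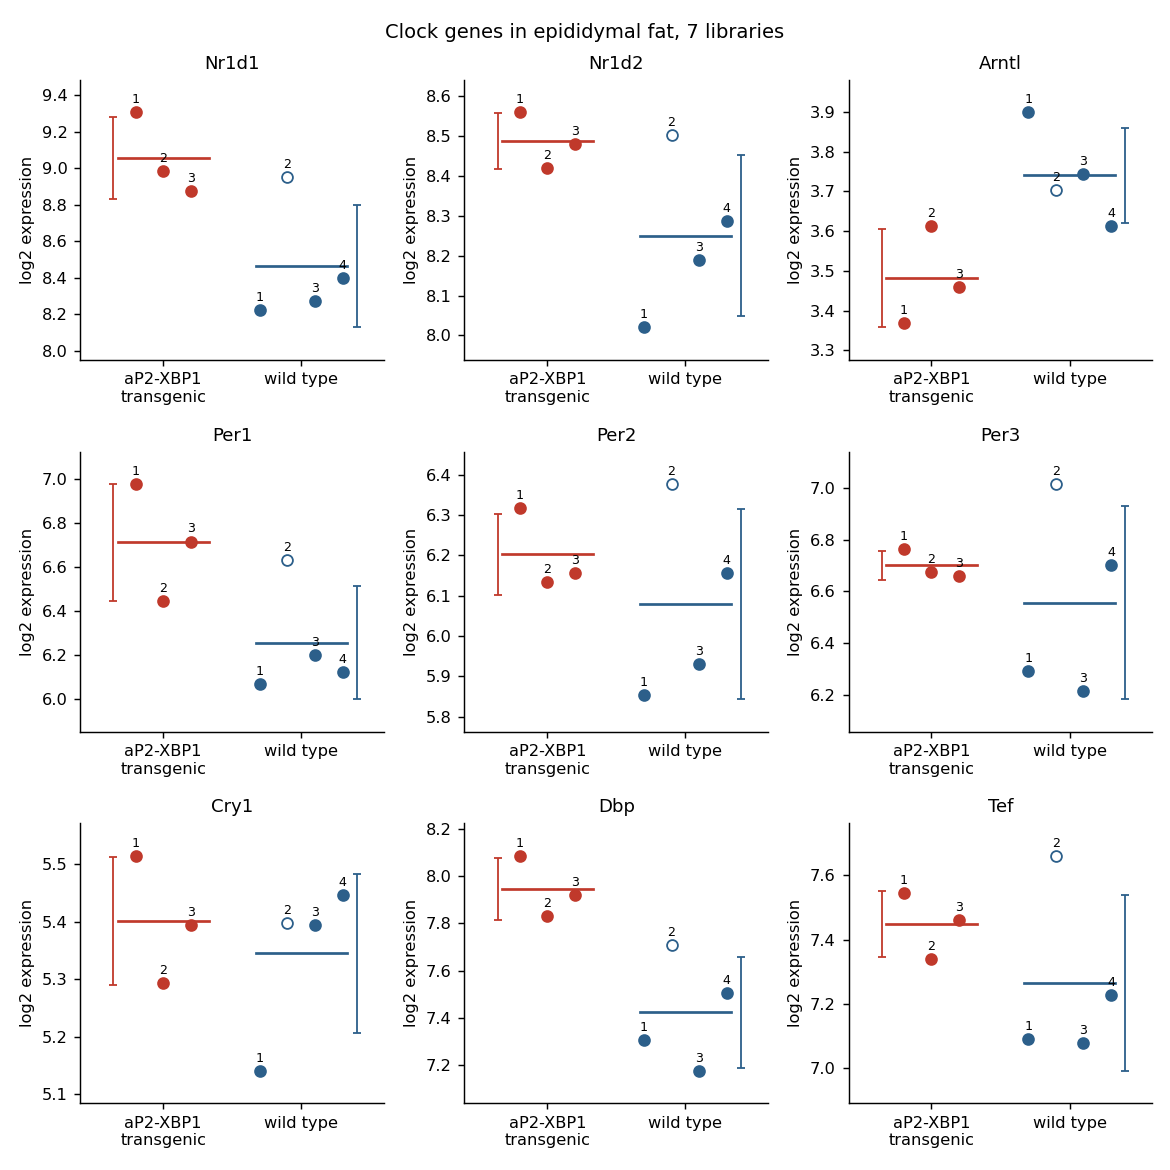
Log2 expression of 9 clock genes in each library, with aP2-XBP1 transgenic libraries on the left of each panel and wild type libraries on the right. Points carry the replicate number, horizontal lines are group means, vertical bars are 1 SD, and wild type replicate 2 is drawn open. For Dbp the transgenic points, 7.83 to 8.09, lie above all wild type points, 7.18 to 7.71, and in the other panels the groups overlap or touch.

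Nr1d1 and Nr1d2 encode the nuclear receptors of the repressive loop on Arntl. Nr1d1 (probe set 10390691) read 9.31, 8.98 and 8.88 in transgenic replicates 1 to 3, against 8.22, 8.95, 8.28 and 8.40 in wild type replicates 1 to 4. The transgenic libraries lay above wild type replicates 1, 3 and 4, and wild type replicate 2 fell between the lower transgenic values. Its mean was 9.06 ± 0.22 (SD, n = 3) in transgenic and 8.46 ± 0.33 (SD, n = 4) in wild type fat, a ratio of 1.51 (SE 0.20 on the log2 scale, limma adjusted p = 0.622, exact two-sided permutation p = 0.0857). The smallest p that 35 splits of 3 and 4 libraries allow is 0.0286, and such tests were run for each of the 9 genes. Against wild type replicate 2 alone the difference was 0.10.

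Nr1d2 (10417734) read 8.56, 8.42 and 8.48 in transgenic libraries, against 8.02, 8.50, 8.19 and 8.29 in wild type replicates 1 to 4. Of the wild type libraries, replicate 2 stood inside the transgenic range and the others below it. The difference was 0.24 (SE 0.11, limma adjusted p = 0.639), and -0.016 against wild type replicate 2 alone.

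Dbp and Tef encode PAR bZIP transcription factors that bind D-boxes. Dbp (10553092) read 8.09, 7.83 and 7.92 in transgenic replicates 1 to 3, against 7.31, 7.71, 7.18 and 7.50 in wild type replicates 1 to 4. It was the only one of the 9 clock genes whose groups did not overlap, and over all probe sets 3.38% were higher in transgenic fat without overlap (5.82% in either direction). Its mean was 7.95 ± 0.13 (SD, n = 3) in transgenic and 7.42 ± 0.23 (SD, n = 4) in wild type fat (SE of the log2 difference 0.14, limma adjusted p = 0.622, exact permutation p = 0.0571). The highest wild type value was that of replicate 2, and the difference from that library alone was 0.24. Leaving out 1 library at a time gave differences from 0.44 to 0.62.

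Tef (10425601) read 7.54, 7.34 and 7.46 in transgenic libraries, against 7.09, 7.66, 7.08 and 7.23 in wild type replicates 1 to 4. The highest of all 7 libraries for this gene was wild type replicate 2. The difference was 0.18 (SE 0.15, limma adjusted p = 0.719), and -0.21 against replicate 2 alone. Leaving out 1 library gave 0.12 without wild type replicate 3 and 0.32 without wild type replicate 2. The pair of PAR bZIP genes thus had unlike values in that library, with Tef above and Dbp below every transgenic library.

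The Per genes encode repressors of the ARNTL complex, and Per1 is also known to respond quickly to glucocorticoids and other stimuli. Per1 (10377439) read 6.98, 6.45 and 6.72 in transgenic libraries, against 6.07, 6.63, 6.20 and 6.12 in wild type replicates 1 to 4. Here too wild type replicate 2 lay inside the transgenic range and the other 3 wild type libraries below it. The difference was 0.46 (SE 0.18, limma adjusted p = 0.622, exact permutation p = 0.0857), and 0.08 against replicate 2 alone.

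Per2 (10356601) read 6.32, 6.13 and 6.16 in transgenic libraries, against 5.85, 6.38, 5.93 and 6.16 in wild type replicates 1 to 4. Per3 (10518781) read 6.76, 6.68 and 6.66 in transgenic libraries, against 6.29, 7.02, 6.21 and 6.70 in wild type replicates 1 to 4. For both genes wild type replicate 2 was the highest of the 7 libraries, wild type replicate 4 lay within the transgenic range, and wild type replicates 1 and 3 were the lowest. The differences were 0.12 (SE 0.13, limma adjusted p = 0.767) for Per2 and 0.14 (SE 0.20, limma adjusted p = 0.811) for Per3. Leaving out 1 library moved Per2 between 0.048 (without wild type replicate 1) and 0.22 (without wild type replicate 2). It moved Per3 between 0.030 (without wild type replicate 3) and 0.30 (without wild type replicate 2). The difference of Per2 was also low without wild type replicate 3 (0.073) and without transgenic replicate 1 (0.065), as was that of Per3 without wild type replicate 1 (0.056). Against wild type replicate 2 alone the differences were -0.17 for Per2 and -0.32 for Per3.

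Cry1 (10371400), the other repressor measured among these genes, read 5.52, 5.29 and 5.39 in transgenic libraries, against 5.14, 5.40, 5.39 and 5.45 in wild type replicates 1 to 4. Only wild type replicate 1 stood apart, below the other 6 libraries. The difference was 0.06 (SE 0.09, limma adjusted p = 0.839), and its sign turned without wild type replicate 1 (-0.012) and without transgenic replicate 1 (-0.00083).

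Arntl (10556463), the activator, went the other way. It read 3.37, 3.61 and 3.46 in transgenic replicates 1 to 3, against 3.90, 3.70, 3.74 and 3.61 in wild type replicates 1 to 4. Transgenic replicate 2 and wild type replicate 4 held the same value, and all other transgenic libraries lay below all other wild type libraries. The mean was 3.48 ± 0.12 (SD, n = 3) in transgenic and 3.74 ± 0.12 (SD, n = 4) in wild type fat, a difference of -0.26 (SE 0.09, limma adjusted p = 0.622, exact permutation p = 0.0857). Against wild type replicate 2 alone it was -0.22, so this library stood with the other wild type libraries for Arntl, as it did not for Per2, Per3, Tef, Nr1d1, Nr1d2 or Per1. All 7 values lie below the array medians of about 4, so the probe set is dim. Beside these results, Clock (10530733), which encodes the partner of ARNTL, read 7.23, 7.10 and 7.25 in transgenic libraries, against 7.23, 7.23, 7.23 and 7.36 in wild type libraries.

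**Figure D2:**
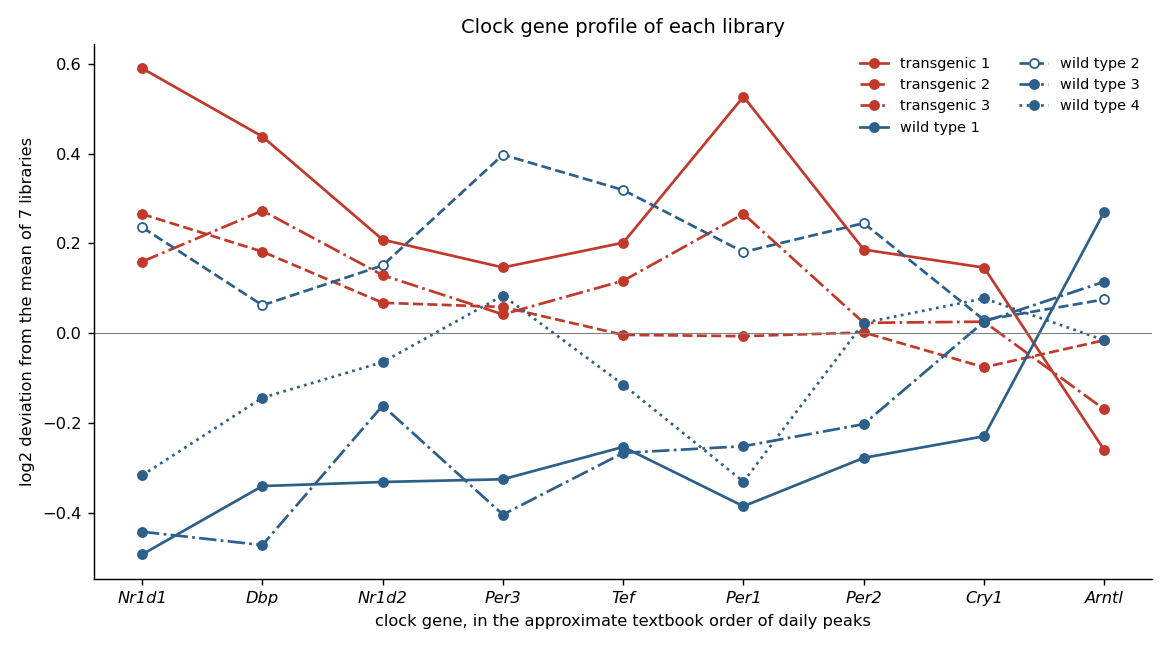
Log2 deviation of each clock gene from its mean over 7 libraries, 1 line per library, with transgenic libraries in red and wild type libraries in blue. Genes run from left to right in the approximate textbook order of their daily peaks. Transgenic replicate 1 is highest at Nr1d1 (0.59) and lowest at Arntl (-0.26), and wild type replicate 1 is lowest at Nr1d1 (-0.49) and highest at Arntl (0.27).

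For all 9 genes the range within wild type fat was larger than the difference between the genotype means. Transgenic replicate 1 held the highest value of the 7 libraries for 5 genes (Nr1d1, Nr1d2, Dbp, Per1 and Cry1) and the lowest for Arntl. Wild type replicate 1 held the lowest value for 5 genes (Nr1d1, Nr1d2, Per1, Per2 and Cry1) and the highest for Arntl, and wild type replicate 3 was lowest for Dbp, Per3 and Tef. Wild type replicate 2 was highest of all for Per2, Per3 and Tef, 3 of 9 genes, where 12.5% of all probe sets had their highest value in that library. Within wild type alone its value was the highest in 7 clock genes, and in 24.0% of all probe sets. The range within transgenic fat was narrower than that within wild type fat for all 9 genes, with 3 libraries against 4. Per3 had the widest contrast of ranges, 0.10 in transgenic and 0.80 in wild type fat.

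The balance of light-phase and dark-phase transcripts was described by the mean of Dbp, Nr1d1, Nr1d2, Per3 and Tef minus Arntl in each library, with Per1, Per2 and Cry1 left out as lying between. Only its change between libraries has a meaning, since probe sets differ in brightness. It was 4.68, 4.24 and 4.42 in transgenic replicates 1 to 3, against 3.49, 4.26, 3.64 and 4.01 in wild type replicates 1 to 4. Wild type replicate 2 lay just above transgenic replicate 2 and the other wild type libraries lay below all transgenic ones. The means differed by 0.60, and by 0.18 against wild type replicate 2 alone. Against that library the mean of the 5 light-phase genes by itself differed by -0.041 and Arntl by -0.22. The 0.18 thus came from Arntl, a dim probe set, and the light-phase mean was not higher in transgenic fat there. No test is given for this balance, since the genes were chosen with earlier results known. Without a recorded hour of killing, genotype and hour of collection cannot be told apart for any of these genes.

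Some differences between clock genes within a library separated the genotypes with wild type replicate 2 included. Of 36 pairs of the 9 genes, 12 had transgenic and wild type values that did not overlap, and over all pairs of the 19938 genes 9.22% did so. The pairs share genes, and Dbp was in 6 of the 12, Nr1d1 in 4 and Arntl in 3. Dbp minus Per2 was 1.77, 1.70 and 1.77 in transgenic replicates 1 to 3, against 1.45, 1.33, 1.25 and 1.35 in wild type replicates 1 to 4. Dbp minus Tef was 0.54, 0.49 and 0.46 in transgenic libraries, against 0.22, 0.05, 0.10 and 0.28 in wild type libraries. Dbp was thus higher relative to Per2 and to Tef in every transgenic library than in any wild type library, and wild type replicate 2 stood among the wild type values. Nr1d1 minus Per2 was 2.99, 2.85 and 2.72 in transgenic libraries, against 2.37, 2.58, 2.35 and 2.25 in wild type libraries. Dbp minus Arntl was 4.72, 4.22 and 4.46 in transgenic libraries, against 3.41, 4.01, 3.43 and 3.89 in wild type libraries. Among the 10 pairs formed by Nr1d2, Per3, Tef, Per2 and Cry1 alone, 0 were apart. These pairs were picked after their values were seen and no test is given for them.

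**Figure D3:**
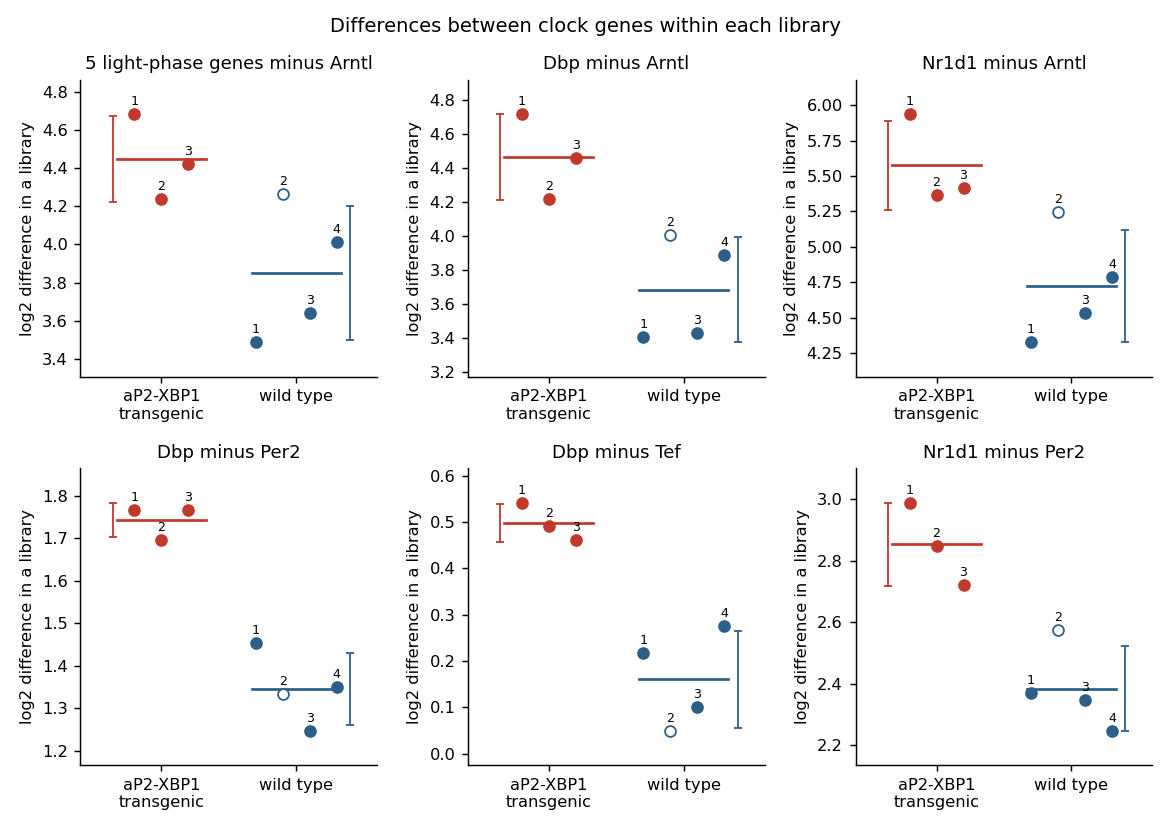
Log2 difference between clock genes within each library, transgenic on the left and wild type on the right of each panel, with replicate numbers, group means and 1 SD. The panel of 5 light-phase genes minus Arntl overlaps through wild type replicate 2 (4.26), and the 5 panels of gene pairs show no overlap.

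In wild type fat, libraries with a lower adipocyte marker mean also had a lower mean of the 8 clock genes other than Arntl. This mean was 7.38, 7.14 and 7.21 in transgenic libraries, against 6.75, 7.28, 6.81 and 6.98 in wild type replicates 1 to 4. The wild type libraries took the same order as for the adipocyte marker mean. Taken singly, Nr1d1, Nr1d2 and Per2 followed that order, while Dbp, Tef, Per1, Per3 and Cry1 did not. When each library was taken relative to its adipocyte marker mean, a scale chosen after seeing the values, the difference was 0.23 for Nr1d1, 0.16 for Dbp and 0.09 for Per1, and 6 genes had a lower level in transgenic fat. This scale lowers the difference of every gene on the array by the same 0.36. The median difference over all probe sets was 0.0090 before that shift, so most probe sets are also lower in transgenic fat after it. On that scale Arntl differed by -0.62, Per2 by -0.24 and Per3 by -0.22. The smallest limma adjusted p among the 9 genes on that scale was 0.255. The part of the epididymal, smooth muscle, adipocyte, macrophage and endothelial transcripts in the clock gene differences was not tested.

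**Figure D4:**
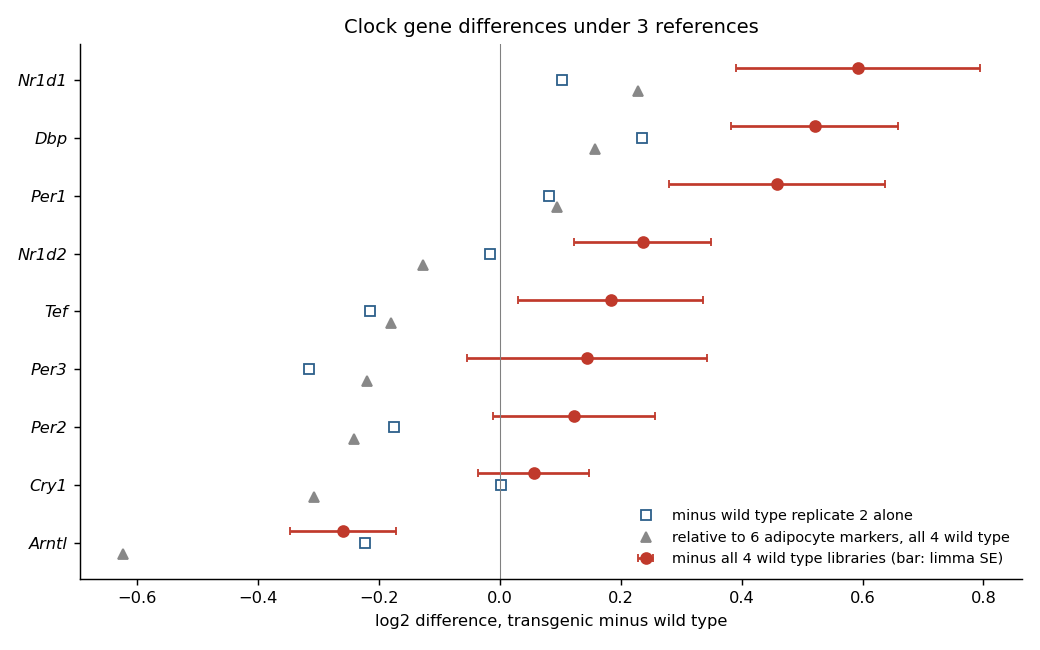
Log2 difference of each clock gene, transgenic minus wild type, against all 4 wild type libraries (red, bar of 1 SE from limma), against wild type replicate 2 alone (open squares) and relative to 6 adipocyte markers (grey triangles). Nr1d1, Dbp and Per1 stay above 0 and Arntl below 0 in all 3, while Nr1d2, Tef, Per3 and Per2 lie above 0 only against all 4 wild type libraries. Each triangle lies the same 0.36 below the red point of its gene.

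The measured partners of the feedback loop had differences between -0.08 and 0.36. Of 18 measured partners, 8 had a higher and 10 a lower mean in transgenic fat, where 53.6% of all probe sets had a higher mean. That split depended on scaling, with 12 higher and 6 lower on arrays shifted to a common median and 11 higher and 7 lower after quantile normalization. With limma 0 passed over all genes, and 0 had an unadjusted p under 0.05 (4.82% of all probe sets higher and 3.12% lower). None had groups that did not overlap, against 5.82% of all probe sets. Without wild type replicate 2 the split was 11 higher and 7 lower, and 5 of the 18 were higher at an unadjusted p under 0.05 (6.66% of all probe sets) with 0 lower. Their median difference was -0.0052, and against wild type replicate 2 alone it was -0.11. Cry2, a repressor like Cry1, read 7.20, 7.21 and 7.03 in transgenic libraries, against 6.74, 7.33, 6.72 and 7.03 in wild type replicates 1 to 4. Ciart, a repressor known for a large daily amplitude, read 5.87, 5.58 and 5.92 in transgenic libraries, against 5.10, 6.32, 5.16 and 5.33 in wild type libraries. Both genes were highest in wild type replicate 2, as were 9 of the 18 partners and 12.5% of all probe sets.

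Hlf, a PAR bZIP factor related to Dbp and Tef, differed by less than 0.01 in size between the genotype means, with 5.43 in wild type replicate 2 against 5.04 to 5.23 in the other wild type libraries. Nfil3, a repressor at D-boxes whose peak is known to oppose that of Dbp, read 4.11, 4.21 and 4.21 in transgenic libraries, against 4.27, 3.85, 4.21 and 3.94 in wild type replicates 1 to 4. Its lowest value was in wild type replicate 2. Rora, an activator of Arntl, had the smallest p of the list, with a difference of 0.26 (SE 0.12, limma adjusted p = 0.634). The repressors Bhlhe40 and Bhlhe41 differed by 0.36 and 0.25, and each was highest in wild type replicate 2, at 6.77 and 7.50. The casein kinases Csnk1d and Csnk1e, which phosphorylate PER proteins, differed by -0.08 and -0.06.

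Output genes, rhythmic in mouse tissues but also under other control, were mixed. Of 16 measured, 11 had a higher and 5 a lower mean in transgenic fat, where 53.6% of all probe sets had a higher mean. With limma 0 passed over all genes. At limma's unadjusted p under 0.05, 3 were higher and 2 lower, against 4.82% and 3.12% of all probe sets. The median difference was 0.05, beside 0.0090 over all probe sets. Groups did not overlap for 2 higher genes (Klf15 and Hsd11b1) and 2 lower genes (Wee1 and Lonrf3), where 3.38% of all probe sets were higher and 2.44% lower without overlap. Wee1, a cell cycle kinase activated by the clock through E-boxes, read 7.05, 6.84 and 7.03 in transgenic libraries, against 7.26, 7.19, 7.19 and 7.51 in wild type libraries. Its difference was -0.32 (SE 0.10, limma adjusted p = 0.622, exact permutation p = 0.0286), opposite in sign to those of Dbp and the Per genes.

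Klf15, a rhythmic regulator of amino acid and glucose metabolism, read 7.18, 7.13 and 7.35 in transgenic libraries, against 5.95, 6.85, 6.07 and 6.68 in wild type replicates 1 to 4. Hsd11b1, the enzyme that regenerates active glucocorticoid within cells, read 7.58, 8.48 and 8.37 in transgenic libraries, against 6.44, 7.22, 6.31 and 6.77 in wild type libraries (log2 difference 1.46, SE 0.30, limma adjusted p = 0.622). Gys2, a glycogen synthase, spread from 5.51 to 7.94 within transgenic and from 3.72 to 5.94 within wild type fat. Lonrf3 differed by -0.68 and Pdk4, a brake on pyruvate oxidation, by -0.23.

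Lipogenic genes, whose levels in fat follow feeding, also differed between the libraries. The mean of 9 lipogenic genes was 9.56, 10.56 and 11.04 in transgenic replicates 1 to 3, against 8.50, 9.56, 8.89 and 9.20 in wild type replicates 1 to 4. Transgenic replicate 1, with the highest Nr1d1, Dbp and Per1, had the lowest lipogenic mean of the transgenic libraries, about level with wild type replicate 2. For the mean of the 8 clock genes other than Arntl, the transgenic libraries took another order than for the lipogenic mean. The wild type libraries took the same order for both means, with replicates 1, 3, 4 and 2 from lowest to highest. A part of feeding in the clock gene differences was not tested. Immediate early genes, which respond within minutes to handling and stress, had a mean of 5.76, 5.78 and 5.69 in transgenic libraries, against 5.89, 5.71, 6.07 and 5.46 in wild type replicates 1 to 4. The transgenic means lay inside the wild type range, while the genes of the list went both ways. In transgenic fat 6 had a higher and 4 a lower mean, where 53.6% of all probe sets had a higher mean. Dusp1, a phosphatase, was the 1 gene of the 10 whose groups did not overlap, where 3.38% of all probe sets were higher without overlap (5.82% in either direction). It read 8.76, 8.35 and 8.61 in transgenic libraries, against 8.33, 8.14, 8.33 and 7.44 in wild type libraries. Atf3, a stress-induced factor, read 5.66, 5.63 and 5.86 in transgenic libraries, against 7.71, 6.52, 7.03 and 5.65 in wild type libraries.

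**Figure D5:**
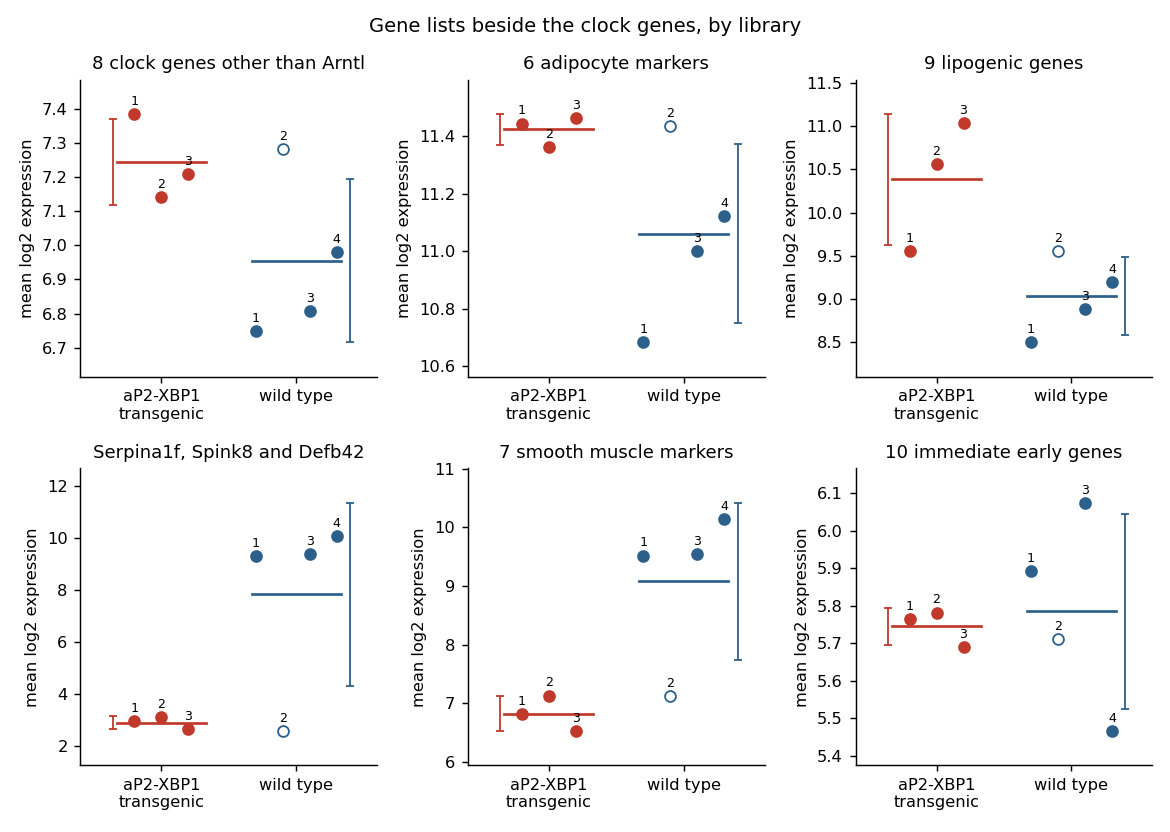
Mean log2 expression of 6 gene lists in each library, transgenic on the left and wild type on the right of each panel, with replicate numbers, group means and 1 SD. Wild type replicate 2 (open) lies with the transgenic libraries in the panels of clock genes, adipocyte markers, epididymal genes and smooth muscle markers. In the panel of lipogenic genes it is about level with transgenic replicate 1 (9.56), the lowest transgenic library. In that of immediate early genes it lies inside the transgenic range (at 5.71), which itself lies inside the wild type range.

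Genes with the profile most like those of Arntl, Dbp and Per2 were found by the root mean square difference between centred log2 profiles over the 7 libraries, among the 17158 other genes compared. The 4 nearest to Arntl were Ern1, Rtl9, Lpp and Bmp2k, at differences from 0.05 to 0.06. Ern1 encodes IRE1 alpha, the enzyme that splices Xbp1, and read 5.72, 5.87 and 5.70 in transgenic libraries, against 6.14, 5.97, 6.07 and 5.97 in wild type libraries. The 4 nearest to Dbp were Vegfb, Dgkd, Gpihbp1 and Tppp, at 0.07 to 0.09, and those nearest to Per2 were Fancc, Arhgap21, Slc30a2 and Prkci, at 0.02 to 0.04. Among clock genes, Nr1d1 ranked 47 and Per1 ranked 71 in likeness to Dbp, while Nr1d2 ranked 60 and Tef ranked 66 in likeness to Per2. Dbp itself ranked 8410 in likeness to Per2, behind the 4499 genes that were nearer to Per2 than a flat profile is. Per1 (9184), Nr1d1 (12310) and Arntl (14156) ranked farther still from Per2. In likeness to Dbp, at the same difference of 0.2055, Per2 ranked 611, where 7045 genes were nearer to Dbp than a flat profile is. The rank of a pair thus depends on the gene it is taken from. With 7 libraries and 17158 genes near matches are many, and these ranks describe the libraries only.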

How the data were processed

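Epididymal fat was measured in 3 samples from aP2-XBP1 transgenic and 4 from wild type mice, grouped by the genotype in the labels. The authors deposited 1 table of log2 values for 35556 probe sets, made with RMA per the submitters' processing notes; the sources used here give neither its version nor any filter. RMA brings arrays to a common distribution, so a shift of all genes in 1 genotype would not be seen. All 7 columns were matched to samples.

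Genes were named from the platform annotation. Tests used the 21789 probe sets with exactly 1 symbol (1621 had several, 12146 none or no entry), and the highest-mean probe set stood for a gene. Entrez identifiers of 21698 matched RefSeq, with 0 symbols to update. Differences were fitted with limma 3.58.1 in R 4.3.3 (lmFit, eBayes, two-sided, Benjamini-Hochberg over all 21789, threshold 0.05). Single genes also had an exact two-sided permutation test over 35 splits. The fit was tested on simulated data.

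Named were the clock members, always 7 partners and outputs (1 is not reported here) and, in each list, the 3 with the smallest p in each direction; likeness used the 4 nearest genes. Dusp1 and Atf3 were named after their values were seen. Members, lists and the balance index were chosen with earlier results of these data known; the index was planned with Npas2 and used Arntl alone. Alternatives were a replicate block, quantile normalization again, a common array median, leaving out the dimmest 25%, array weights (statmod 1.5.0), a robust prior with an intensity trend, leaving out each library, wild type replicate 2 as the only control, and the mean of a gene's probe sets. A scale relative to adipocyte markers was added later. Same-numbered samples did not deviate together (correlations -0.14, -0.09 and 0.06), and the main fit did not pair them. So few correlations cannot exclude a shared batch. Sequences came from RefSeq (GRCm38.p6). Figures used Python 3.11.15 and matplotlib 3.10.9.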

Additional observations from a re-analysis of the deposited data

Results flagged for a closer look

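Among the wild type libraries, where 1 in 4 can stand far from the rest, a few values did so by Dixon's test. It was run on 56 sets of wild type values, and chance alone trips it in about 1 of 20 groups. For Cry1 the library that stood apart was wild type replicate 1, at 5.14 against 5.39 to 5.45 in the other wild type libraries. For Clock it was wild type replicate 4, at 7.36, and for Csnk1e wild type replicate 2, at 7.23, both within 0.13 of the other wild type values. The other wild type values of Clock were identical, so the test flags any departure from them and the chance rate does not apply there.

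Wild type replicate 2 stood far below the other wild type libraries for Serpina1f (2.74), Spink8 (2.45) and Defb42 (2.51), for the mean of these 3 genes (2.57) and for the mean of 9 epididymal markers (2.63).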

How the results depend on the processing

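With the replicate number as a block, 0 clock genes and 0 probe sets passed, the median difference of the clock genes was 0.19, and the block changed no call. Leaving out 1 library gave between 0 and 91 passing probe sets. The 91 came without wild type replicate 2 (84 lower and 7 higher), and 0 clock genes passed under any such omission. An unadjusted p under 0.05 gave 1729 probe sets and 4 clock genes, and groups without overlap 1269 probe sets and 1 clock gene. Against the single library wild type replicate 2, the median difference was -0.016 for the clock genes and -0.11 for the feedback partners. The light-phase balance differed from that library by 0.18, with its light-phase mean at -0.041 and Arntl at -0.22. Against it the signs turned for Nr1d2 (-0.016), Per2 (-0.17), Per3 (-0.32) and Tef (-0.21). The scale relative to the adipocyte markers lowers the difference of every gene by the same 0.36. On it the median was -0.18 for the clock genes, -0.31 for the output list and -0.37 for the partners. By that shift alone the signs turned for Cry1 (-0.31), Nr1d2 (-0.13), Per2 (-0.24), Per3 (-0.22) and Tef (-0.18). The sign of Cry1 also turned without wild type replicate 1 (-0.012) and without transgenic replicate 1 (-0.00083), in a range up to 0.11 without transgenic replicate 2. Apart from the shift by the adipocyte markers, the cause of these changes was not tested. Over omissions of 1 library the clock gene median ran from 0.12 to 0.32, the balance from 0.47 to 0.73, the partner median from -0.04 to 0.05 and the output median from 0.03 to 0.15. Nr1d1, Dbp and Per1 kept a positive and Arntl a negative difference under every alternative run. Dim probe sets, Arntl among them, limit what 7 arrays can show.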
